A study of Rattus norvegicus with 10 samples.

Results

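The 10 genes described here form a short panel of the response to low oxygen and of glucose breakdown: Hif1a, Egln3, Vegfa, Adm, Hk2, Pfkfb3, Pgk1, Ldha, Pdk1 and Bnip3. They were taken by name from the 32545 genes of the count table, and each name matched 1 row. RNA depleted of ribosomal RNA was sequenced from the CA1 region of hippocampal slices of male Wistar rats aged 5 to 7 weeks, in 5 groups of 2 libraries. The SKF group received SKF, a dopamine D1/D5 receptor agonist. The SKF+Aβ group also received amyloid-β (Aβ) oligomers, and the SKF+Aβ+CSP and SKF+Aβ+CSP-TTK21 groups additionally received carbon nanospheres (CSP) or the same spheres loaded with TTK21, which activates the histone acetyltransferases CBP and p300. The group labelled CSP-TTK21 alone received neither SKF nor Aβ. The recordings of the study used Aβ at 200 nM and either nanosphere preparation at 0.36 µg/ml, and concentrations for the sequenced slices are not stated separately. All groups were slices kept in carbogenated fluid, given 30 min of basal stimulation and collected 1 h after treatment, and each library pooled 2 slices from 2 biological samples. The study calls the libraries of a group biological replicates, and the labels do not name the rats behind each. No library of intact or deliberately hypoxic tissue was analysed here, so the levels can be compared between the groups but not with a reference for oxygenation.

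Cells sense oxygen through hypoxia-inducible factor 1 (HIF-1). Its alpha subunit, encoded by Hif1a, is made continuously and is hydroxylated and degraded when oxygen is plentiful, a step carried out by prolyl hydroxylases such as the product of Egln3. When oxygen falls, the subunit accumulates as protein, pairs with the product of Arnt and activates genes that bring in blood supply (Vegfa, Adm), raise glucose use (Hk2, Pfkfb3, Pgk1, Ldha) and lower oxygen use by mitochondria (Pdk1, Bnip3). HIF-1 recruits CBP and p300 as coactivators. The messenger RNA of Hif1a itself is a poor measure of HIF-1 activity, because the control by oxygen acts mainly on the protein, whereas those of its targets are widely read as signs of how well brain tissue is oxygenated.

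The core DNA sequence bound by HIF-1 is ACGTG or GCGTG. RefSeq promoter windows of the rat genome GRCr8, 250 bases before a start site, were matched by symbol to 9 of the 10 genes in 10 windows, Vegfa having 2. Both cores were searched on both strands, and a CACGTG run counts on each strand. Matches stood in the windows of 5 genes, with 4 each in Ldha and Bnip3, 3 in Hif1a and 2 each in Pfkfb3 and Pdk1, and in none of the windows of Egln3, Vegfa, Adm and Hk2. Of all 33469 RefSeq windows of this length, 36.7% held at least 1 match, 16.0% at least 2 and 2.40% at least 4. A match describes these letters only. The windows of 3 genes follow, 5′ to 3′ on the strand of the gene with matched cores in capitals. Bnip3 and Hk2 are shown because they had the largest differences of opposite sign in SKF+Aβ+CSP-TTK21 relative to SKF, and Ldha because it was the steadiest of the 10 genes. The Bnip3 window is chr1:203154963-203155212 on the minus strand, that of Hk2 is chr4:116841276-116841525 on the minus strand, and that of Ldha is chr1:106507842-106508091 on the plus strand.
Bnip3: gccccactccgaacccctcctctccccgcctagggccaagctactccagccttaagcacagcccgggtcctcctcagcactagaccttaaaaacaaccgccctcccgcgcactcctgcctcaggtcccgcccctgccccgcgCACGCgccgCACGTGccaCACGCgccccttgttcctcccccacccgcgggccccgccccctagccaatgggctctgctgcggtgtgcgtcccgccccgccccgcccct
Hk2: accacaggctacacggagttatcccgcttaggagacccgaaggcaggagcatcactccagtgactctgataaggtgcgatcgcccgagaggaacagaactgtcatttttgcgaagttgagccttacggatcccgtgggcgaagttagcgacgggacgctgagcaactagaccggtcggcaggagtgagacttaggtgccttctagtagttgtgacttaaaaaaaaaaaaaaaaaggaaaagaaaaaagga
Ldha: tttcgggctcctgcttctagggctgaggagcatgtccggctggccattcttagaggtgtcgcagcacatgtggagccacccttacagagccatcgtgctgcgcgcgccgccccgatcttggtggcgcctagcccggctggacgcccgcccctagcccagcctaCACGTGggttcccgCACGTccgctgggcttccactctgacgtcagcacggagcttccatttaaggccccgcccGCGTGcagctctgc

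Total counts ran from 6753742 to 8473407 per library, and the share of counts from mitochondrial genes ran from 3.58% to 7.71%, lowest in the first SKF library. The 2 libraries of a group differed by more than sampling noise in every group, the chi-square divided by its degrees of freedom being 4.73 in SKF+Aβ+CSP to 12.1 in SKF. Of 3 CA1 markers matched, Wfs1 stood at 98.1 to 372 and Mpped1 at 147 to 215 normalized CPM (CPM with library sizes scaled by TMM factors), whereas Fibcd1 was listed at 0 in all 10 libraries. The dentate gyrus marker Prox1 stood at 142 to 248 normalized CPM. In such bulk tissue, fewer cells of a type and less RNA per cell cannot be told apart.

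All 10 genes passed the filter on low counts and were among the 15032 genes tested. None was called, by an adjusted p under 0.05 and a log2 difference of over 1.5 in size, in any of the 8 comparisons between groups by edgeR's quasi-likelihood test, and none reached an adjusted p under 0.05 without the fold limit. A test of equal means over the 5 groups also placed none at an adjusted p under 0.05, against 0.00665% of all genes, and 1 member, Bnip3, had an unadjusted p under 0.05 (edgeR adjusted p = 0.336), against 14.3% of all genes. DESeq2 placed none of the 10 at an adjusted p under 0.05 in any comparison, giving no adjusted p for Adm in 3 of them and for Egln3 in 1. By DESeq2, 5.44%, 3.03% and 2.20% of all genes had an adjusted p under 0.05 in SKF+Aβ, SKF+Aβ+CSP and SKF+Aβ+CSP-TTK21 against SKF, and at most 0.140% in the other 5 comparisons. In the first 3 of these, DESeq2 gave an adjusted p to only 9495, 8912 and 8037 of the 15032 genes. Shares of the genes with an adjusted p would be higher. For 6 of the 10 genes (Egln3, Vegfa, Hk2, Pgk1, Ldha and Pdk1) the 2 libraries of 1 group differed by a larger factor than the highest and the lowest group mean.

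**Figure D1:**
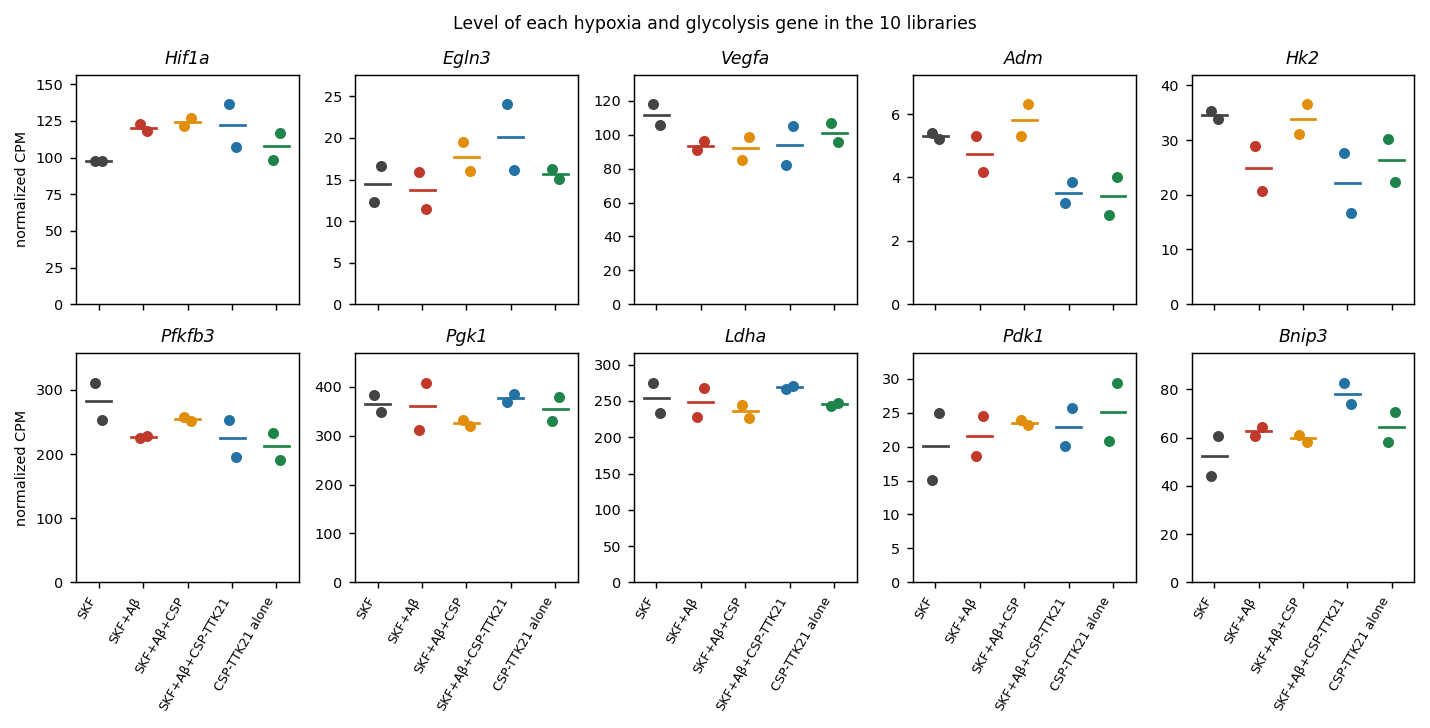
Level of the 10 genes in each library, in normalized CPM, on axes that start at 0. Each point is 1 library, colours mark the 5 groups and the bar is the mean of the 2 libraries; Ldha spanned a factor of 1.21 over all libraries and Adm a factor of 2.24.

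Hif1a encodes the regulated subunit of HIF-1, and Egln3 a prolyl hydroxylase that acts on it. Hif1a stood at 97.5 and 97.6 normalized CPM with SKF, at 123 and 118 with SKF+Aβ, at 122 and 127 with SKF+Aβ+CSP, at 136 and 107 with SKF+Aβ+CSP-TTK21 and at 98.5 and 117 with CSP-TTK21 alone. Every library of the other 4 groups therefore lay above both SKF libraries, which were nearly equal. The log2 differences from SKF were 0.30 (95% interval -0.0026 to 0.61) for SKF+Aβ, 0.35 (0.04 to 0.66) for SKF+Aβ+CSP, 0.32 (0.02 to 0.63) for SKF+Aβ+CSP-TTK21 and 0.14 (-0.16 to 0.45) for CSP-TTK21 alone. The unadjusted p was under 0.05 in both groups that received nanospheres with SKF and Aβ, and the lowest edgeR adjusted p was 0.204. Without the first SKF+Aβ+CSP-TTK21 library the difference of that group was 0.14, and without the second library of CSP-TTK21 alone that of the latter group was 0.01. These comparisons share the SKF libraries, so their like direction rests in part on the same 2 values. The 3 groups with SKF and Aβ were close to each other, with means of 120.3 ± 3.66, 124 ± 3.90 and 122 ± 20.3 normalized CPM (SD, n = 2).

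Egln3 encodes the prolyl hydroxylase that marks HIF alpha subunits for degradation and is itself a hypoxia-induced gene. It stood at 12.3 and 16.7 normalized CPM with SKF, at 15.9 and 11.5 with SKF+Aβ, at 19.5 and 16.0 with SKF+Aβ+CSP, at 24.0 and 16.1 with SKF+Aβ+CSP-TTK21 and at 16.3 and 15.1 with CSP-TTK21 alone. The first SKF+Aβ+CSP-TTK21 library was the highest and the libraries of neighbouring groups overlapped, except that both CSP-TTK21 and both CSP libraries with Aβ lay above the SKF+Aβ pair, by as little as 16.0 against 15.9. SKF+Aβ+CSP-TTK21 differed from SKF+Aβ by 0.55 on the log2 scale (95% interval 0.03 to 1.08, edgeR adjusted p = 0.746). The value was 0.23 without the first SKF+Aβ+CSP-TTK21 library and 0.80 without the second, and 0.81 or 0.34 without the first or second SKF+Aβ library.

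Vegfa and Adm encode secreted factors that act on vessels. Vegfa, the main growth factor for endothelium, stood at 118 and 106 normalized CPM with SKF, at 90.9 and 96.3 with SKF+Aβ, at 85.2 and 98.9 with SKF+Aβ+CSP, at 82.5 and 106 with SKF+Aβ+CSP-TTK21 and at 107 and 95.6 with CSP-TTK21 alone. SKF had the highest mean, 112 ± 8.52 (SD, n = 2), and the other groups had means of 92.1 to 101. The log2 differences from SKF were -0.26, -0.28, -0.25 and -0.15 for the Aβ, CSP and CSP-TTK21 groups with SKF and for CSP-TTK21 alone, and all 4 of their 95% intervals included 0. The lowest edgeR adjusted p among them was 0.317.

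Adm, the gene of the vasodilator peptide adrenomedullin, had the fewest counts, 20 to 45 per library. Its levels lay at 5.39 and 5.21 normalized CPM with SKF, at 5.31 and 4.17 with SKF+Aβ, at 5.32 and 6.30 with SKF+Aβ+CSP, at 3.20 and 3.85 with SKF+Aβ+CSP-TTK21 and at 2.81 and 4.01 with CSP-TTK21 alone. The 4 libraries that received CSP-TTK21 were the 4 lowest of the 10. SKF+Aβ+CSP-TTK21 differed from SKF+Aβ+CSP by -0.72 on the log2 scale (95% interval -1.41 to -0.03, edgeR adjusted p = 0.564) and from SKF by -0.59 (-1.28 to 0.10). At this depth a level as low as 0.378 times that of SKF+Aβ+CSP lay inside the interval of the first of these, the farthest bound of any member.

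The 4 genes of glucose breakdown did not share 1 pattern over the libraries. Hk2, encoding the hexokinase that traps glucose in the cell, stood at 35.3 and 33.9 normalized CPM with SKF, at 28.9 and 20.7 with SKF+Aβ, at 31.2 and 36.5 with SKF+Aβ+CSP, at 27.6 and 16.7 with SKF+Aβ+CSP-TTK21 and at 30.2 and 22.3 with CSP-TTK21 alone. The SKF and SKF+Aβ+CSP libraries were the 4 highest. SKF+Aβ+CSP-TTK21 differed by -0.64 from SKF (95% interval -1.15 to -0.13, edgeR adjusted p = 0.179) and by -0.60 from SKF+Aβ+CSP (-1.11 to -0.09, edgeR adjusted p = 0.556). These values rested on the second SKF+Aβ+CSP-TTK21 library: without it they were -0.34 and -0.30, and without the first they were -1.05 and -1.02.

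Pfkfb3 makes the activator of phosphofructokinase, the committed step of glycolysis. Its levels lay at 311 and 254 normalized CPM with SKF, at 224 and 228 with SKF+Aβ, at 258 and 251 with SKF+Aβ+CSP, at 253 and 196 with SKF+Aβ+CSP-TTK21 and at 233 and 191 with CSP-TTK21 alone. The first SKF library stood highest and the second libraries of the 2 CSP-TTK21 groups lowest. CSP-TTK21 alone differed from SKF by -0.42 (95% interval -0.75 to -0.08, edgeR adjusted p = 0.633), and SKF+Aβ and SKF+Aβ+CSP-TTK21 by -0.32 and -0.33, with 95% intervals that just included 0. Without the first SKF library the first of these values was -0.27, and without the second library of CSP-TTK21 alone it was -0.28.

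Pgk1 and Ldha, the genes of phosphoglycerate kinase and of the lactate dehydrogenase A subunit, were the steadiest of the panel. Pgk1 stood at 383 and 347 normalized CPM with SKF, at 311 and 408 with SKF+Aβ, at 331 and 321 with SKF+Aβ+CSP, at 369 and 386 with SKF+Aβ+CSP-TTK21 and at 329.9 and 379 with CSP-TTK21 alone. The SKF+Aβ pair held both the lowest and the highest library. Ldha stood at 275 and 233 normalized CPM with SKF, at 227 and 268 with SKF+Aβ, at 244 and 227 with SKF+Aβ+CSP, at 267 and 271 with SKF+Aβ+CSP-TTK21 and at 243 and 248 with CSP-TTK21 alone. For both genes SKF+Aβ+CSP had the lowest mean and SKF+Aβ+CSP-TTK21 the highest, without overlap of the libraries. The difference between these 2 groups was 0.21 (95% interval -0.10 to 0.52, edgeR adjusted p = 0.652) for Pgk1 and 0.19 (-0.09 to 0.47, edgeR adjusted p = 0.657) for Ldha on the log2 scale. Over all 8 comparisons the 95% intervals of Ldha reached from -0.39 to 0.47 at most.

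Pdk1 and Bnip3 act on mitochondria. Pdk1 encodes a kinase that switches off pyruvate dehydrogenase and so keeps pyruvate out of the citric acid cycle, and it stood at 15.1 and 25.0 normalized CPM with SKF, at 18.6 and 24.4 with SKF+Aβ, at 23.9 and 23.2 with SKF+Aβ+CSP, at 20.1 and 25.7 with SKF+Aβ+CSP-TTK21 and at 20.8 and 29.4 with CSP-TTK21 alone. The 2 SKF libraries differed by a factor of 1.66, more than the factor of 1.25 between the highest and lowest group means. Its largest log2 difference from SKF was 0.33, in CSP-TTK21 alone (95% interval -0.21 to 0.86, edgeR adjusted p = 0.742). It was 0.00 without the first SKF library and 0.74 without the second, and 0.54 or 0.05 without the first or second library of CSP-TTK21 alone.

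Bnip3, whose product sits on the outer mitochondrial membrane and takes part in the removal of mitochondria, had the lowest edgeR adjusted p of the panel. It stood at 44.2 and 60.5 normalized CPM with SKF, at 60.8 and 64.5 with SKF+Aβ, at 61.1 and 58.3 with SKF+Aβ+CSP, at 82.7 and 73.7 with SKF+Aβ+CSP-TTK21 and at 58.2 and 70.6 with CSP-TTK21 alone. Both SKF+Aβ+CSP-TTK21 libraries lay above all 8 others, and the first SKF library was the lowest. The mean of 78.2 ± 6.36 in SKF+Aβ+CSP-TTK21 was 1.49-fold that of 52.4 ± 11.5 in SKF (SD, n = 2), a log2 difference of 0.58 (95% interval 0.22 to 0.93, edgeR adjusted p = 0.124). The adjusted p was 0.0555 by DESeq2 and 0.0876 by edgeR with a replicate block, at differences of 0.57 and 0.59. Against SKF+Aβ+CSP, the vehicle nanospheres, the difference was 0.39 (0.04 to 0.74, edgeR adjusted p = 0.563), against SKF+Aβ it was 0.32 (-0.03 to 0.67) and against CSP-TTK21 alone 0.28 (-0.07 to 0.63). Without the second SKF library the difference from SKF was 0.83 with an edgeR adjusted p of 0.0397, and without the first it was 0.36. With the second SKF library left out, 2.14% of all genes had an adjusted p under 0.05 in that comparison, against 0.00665% with all libraries.

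**Figure D2:**
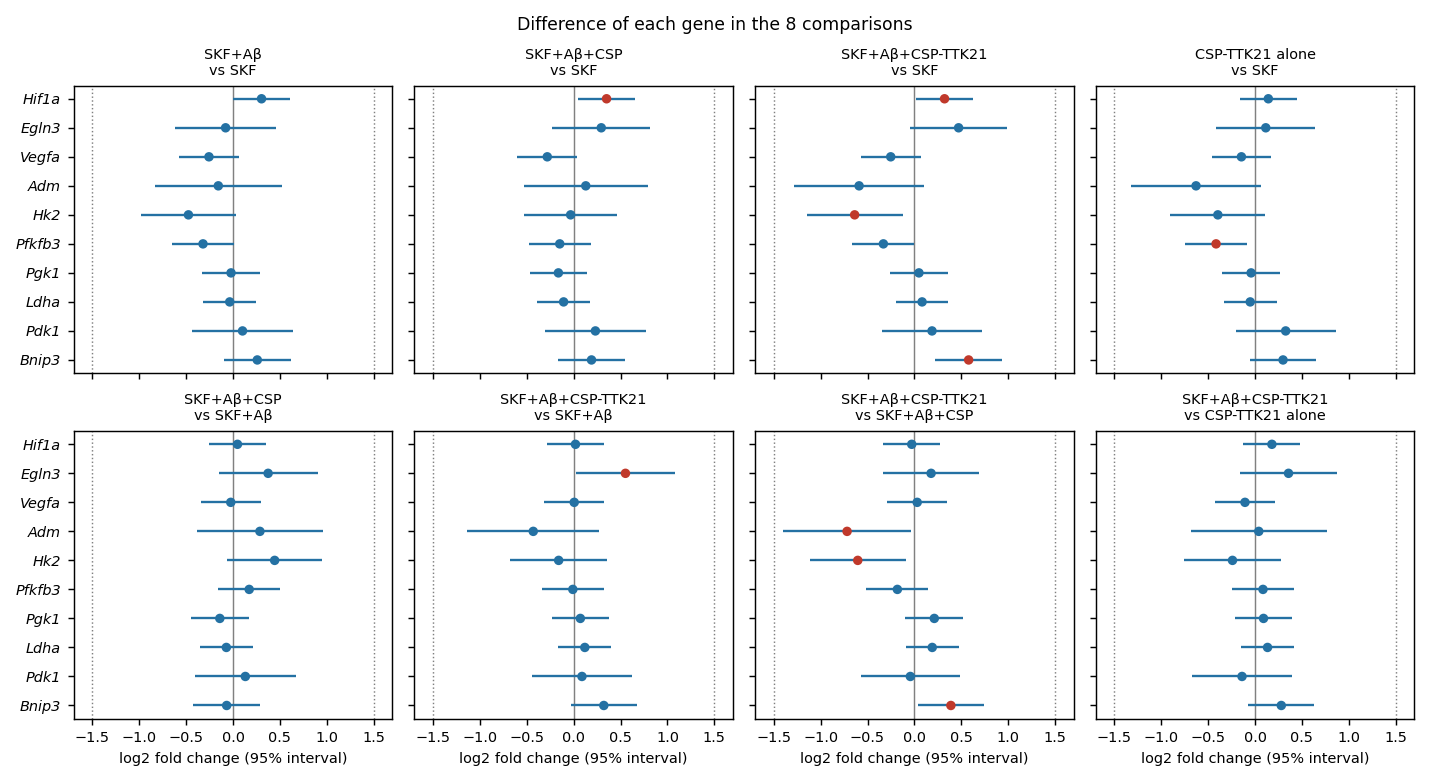
Log2 fold change of the 10 genes in each of the 8 comparisons, with 95% intervals as bars. Red points have an unadjusted p under 0.05 (9 of 80 values), dotted lines mark the fold limit of 1.5 on the log2 scale, and no member had an adjusted p under 0.05.

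The comparison of SKF+Aβ with SKF asks whether Aβ oligomers were accompanied by a hypoxic or glycolytic shift. No member was called, against 0.146% of all genes, and none had an adjusted p under 0.05, against 2.08%. None of the 10 had an unadjusted p under 0.05, against 22.8% of all genes. The libraries of the groups did not overlap for 5 members, Hif1a and Bnip3 being higher and Vegfa, Hk2 and Pfkfb3 lower, against 49.6% of all genes. The median log2 fold change of the members was -0.06, and that of all genes lay between -0.0110 and 0.0115 in all 8 comparisons. With any 1 library left out the median of the members stayed below 0, and its size could be larger. All 10 intervals lay within a 2-fold change in either direction.

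Relative to SKF, none of the 10 was called in SKF+Aβ+CSP, against 0.0133% of all genes, nor at an adjusted p under 0.05, against 0.02%. Hif1a alone had an unadjusted p under 0.05, against 19.3% of all genes, and 3 members did not overlap (Hif1a higher, Vegfa and Pgk1 lower), against 52.4%. For SKF+Aβ+CSP-TTK21 against SKF, none was called, against 0% of all genes, and none had an adjusted p under 0.05, against 0.00665%. The unadjusted p was under 0.05 for 3 members, with Hif1a and Bnip3 higher and Hk2 lower, against 19.6% of all genes, and 6 did not overlap, Adm, Pfkfb3 and Vegfa being lower as well, against 50.5%. The medians of the members were 0.05 and 0.07 in these comparisons, and leaving out 1 library could turn the sign of both (-0.0389 to 0.0956 and -0.0227 to 0.0880).

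CSP-TTK21 alone against SKF, which differ in all 3 agents SKF, CSP and TTK21, had no member called or at an adjusted p under 0.05, as for 0% of all genes by either rule. Pfkfb3 had an unadjusted p under 0.05, against 7.78% of all genes, and 4 members did not overlap, with Hif1a higher and Adm, Hk2 and Pfkfb3 lower, against 36.1%. The median was -0.05.

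The loaded and empty nanospheres were compared at the same step of the design, with SKF and Aβ in both groups. None of the 10 was called or had an adjusted p under 0.05 in SKF+Aβ+CSP-TTK21 relative to SKF+Aβ+CSP, as for 0% of all genes by either rule, and 3 members (Bnip3 higher, Adm and Hk2 lower) had an unadjusted p under 0.05, against 8.78%. Libraries did not overlap for 5 members, Pgk1 and Ldha being higher too, against 46.3% of all genes, and the median was 0.00. The intervals of 8 members lay within a 2-fold change, and those of Adm and Hk2 reached further down.

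Against SKF+Aβ, no member was called or had an adjusted p under 0.05 in SKF+Aβ+CSP or SKF+Aβ+CSP-TTK21, as for 0% of all genes in both. With the empty nanospheres no member had an unadjusted p under 0.05, against 2.18% of all genes, and Egln3, Adm, Hk2 and Pfkfb3 were higher without overlap, 4 of 10 against 27.2%. With CSP-TTK21, Egln3 alone had an unadjusted p under 0.05, against 6.59%, and 3 members did not overlap (Egln3 and Bnip3 higher, Adm lower), against 35.9%. Relative to CSP-TTK21 alone, SKF+Aβ+CSP-TTK21, which adds SKF and Aβ, had no member called, at an adjusted p under 0.05 (0% of all genes by either rule) or at an unadjusted p under 0.05 (4.18%), and Ldha and Bnip3 were higher without overlap, 2 of 10 against 33.6% of all genes. The medians of these 3 comparisons were 0.09, 0.04 and 0.09, the second reaching -0.00917 with 1 library left out.

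The 10 genes did not share 1 pattern over the libraries. The mean of their log2 deviations from their own average ran only from -0.09, in the first library of CSP-TTK21 alone, to 0.08, in the second SKF+Aβ+CSP library. Pearson's r of each gene with the mean of the other 9 over the 10 libraries ran from -0.59 for Vegfa to 0.18 for Hif1a. Pgk1 and Ldha, which act in the lower part of glycolysis and in lactate formation, had an r of 0.86, and Hk2 and Pfkfb3, of its upper part, had an r of 0.78. Hk2 had an r of -0.62 with Pgk1 and -0.50 with Ldha, whereas Pfkfb3 had -0.15 and 0.09. Hif1a and Vegfa had an r of -0.87. With the group means removed, r was 0.83 for Pgk1 and Ldha, 0.70 for Hk2 and Pfkfb3, and -0.74 for Hif1a and Vegfa. These values describe 10 libraries that share groups and scaling, and the pairs were singled out after their values were seen.

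**Figure D3:**
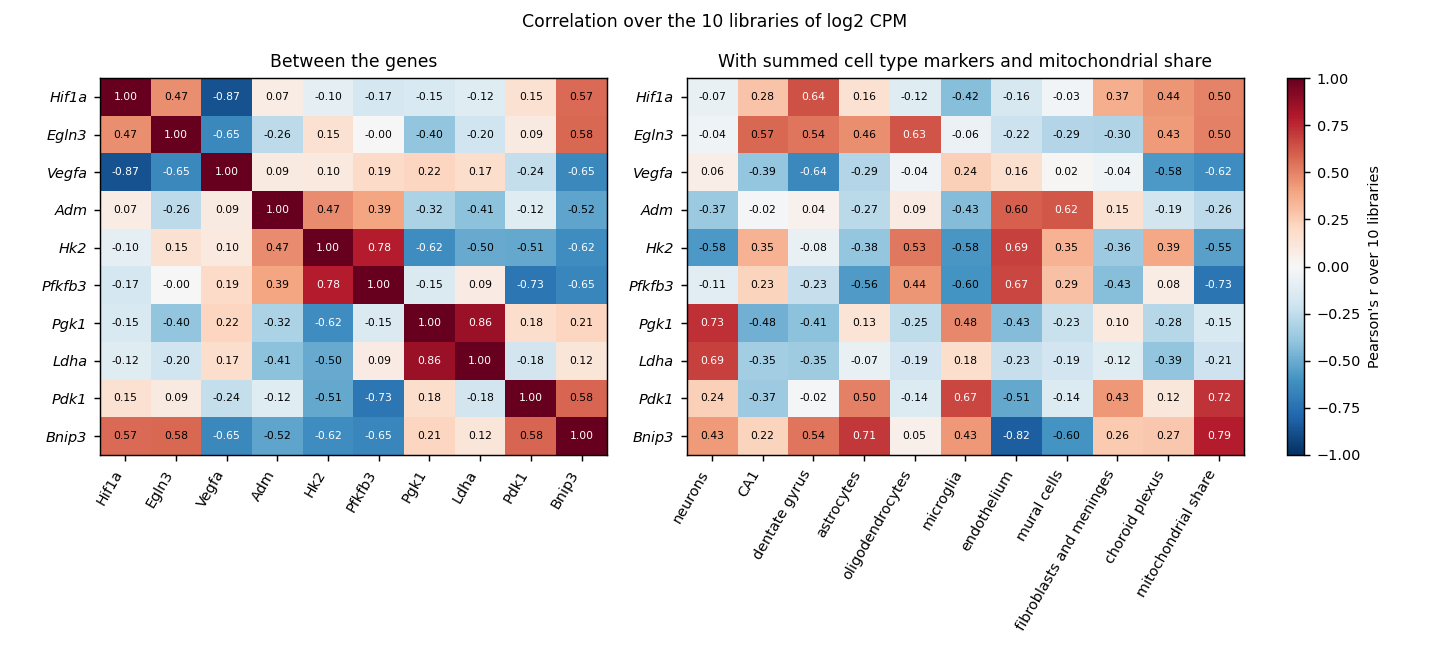
Pearson's r over the 10 libraries on the log2 scale, between the 10 genes (left) and of each gene with the summed level of each cell type's markers or the mitochondrial share of counts (right). Blocks of both signs are seen, such as 0.86 for Pgk1 with Ldha and -0.87 for Hif1a with Vegfa.

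Cell type markers and the mitochondrial share moved with several of these genes. The pairs given were singled out after their values were seen. The 3 oligodendrocyte markers Mbp, Mog and Mag, summed, ran from 10375 to 16026 normalized CPM in SKF, 6469 to 8797 in SKF+Aβ, 9869 to 10346 in SKF+Aβ+CSP, 9002 to 13670.0 in SKF+Aβ+CSP-TTK21 and 8639 to 9275 in CSP-TTK21 alone. Egln3 had an r of 0.63 with this sum over the libraries and of 0.96 with the group means removed. In all 5 groups the library with the higher sum had the higher Egln3 level, and the second SKF+Aβ library was the lowest in both. Egln3 also had an r of 0.57 with the CA1 markers and 0.54 with those of the dentate gyrus, or 0.89 and 0.82 with the group means removed. The part of these contents in the Egln3 values was not tested.

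Endothelial markers, 4 of 5 matched, summed to 82.5 to 167 normalized CPM in SKF, 80.6 to 109.8 in SKF+Aβ, 118 to 166 in SKF+Aβ+CSP, 61.7 to 63.4 in SKF+Aβ+CSP-TTK21 and 76.2 to 101 in CSP-TTK21 alone, with the defining marker Cldn5 listed at 0 in all 10. The 2 SKF+Aβ+CSP-TTK21 libraries were the lowest. Bnip3 had an r of -0.82 with this sum, Hk2 of 0.69 and Pfkfb3 of 0.67, or -0.79, 0.28 and 0.62 with the group means removed. Hk2 had an r of 0.35 with the CA1 markers, or 0.85 with the group means removed. With the mitochondrial share, r was 0.79 for Bnip3, 0.72 for Pdk1 and -0.73 for Pfkfb3. The first SKF library, lowest in mitochondrial share and highest in the endothelial sum, was also the lowest for Bnip3 and Pdk1 and the highest for Pfkfb3. The part of these contents in the differences of Bnip3, Hk2, Pfkfb3 and Pdk1 was not tested.

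Neuronal markers, 5 of 5 matched, spanned a factor of 1.20 over the libraries, from 5328 to 6374 normalized CPM, and Pgk1 and Ldha had r of 0.73 and 0.69 with their sum, or 0.71 and 0.50 with the group means removed. With the group means removed, r was -0.86 for Pgk1 and -0.77 for Ldha with the CA1 markers, and -0.84 and -0.92 with those of the dentate gyrus, against -0.48, -0.35, -0.41 and -0.35 over the libraries. Astrocyte markers, 5 of 5, spanned 2522 to 3694 normalized CPM and had an r of 0.71 with Bnip3. Microglial markers, 5 of 5, spanned 74.6 to 136 normalized CPM, and Pdk1 had an r of 0.67 with their sum and of 0.97 with the group means removed, the library with the higher sum having the higher Pdk1 level in all 5 groups. Pfkfb3 and Hk2 had r of -0.60 and -0.58 with the same sum, or -0.84 and -0.74 with the group means removed. Adm had an r of 0.62 with the mural cell markers, 3 of 3, which spanned 40.8 to 58.8 normalized CPM, and of 0.60 with the endothelial sum, or 0.37 and -0.14 with the group means removed. The part of these contents in the values of Pgk1, Ldha, Bnip3, Pdk1, Pfkfb3, Hk2 and Adm was not tested. The other sums were those of fibroblast and meningeal markers at 9.54 to 32.2 (Col1a2 listed at 0 in all libraries), choroid plexus markers at 0.285 to 4.60 and CA1 markers at 245 to 529 normalized CPM. The dentate gyrus sum, 197 to 300.3 normalized CPM, had an r of -0.64 with Vegfa and 0.64 with Hif1a, or -0.52 and 0.44 with the group means removed. With the group means removed, Vegfa also had an r of -0.74 with the oligodendrocyte sum. Even the choroid plexus sum, near 0, then had r of -0.83 with Vegfa and 0.80 with Hif1a. Vegfa had an r of -0.62 with the mitochondrial share over the libraries. The part of these contents in the values of Vegfa and Hif1a was not tested.

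**Figure D4:**
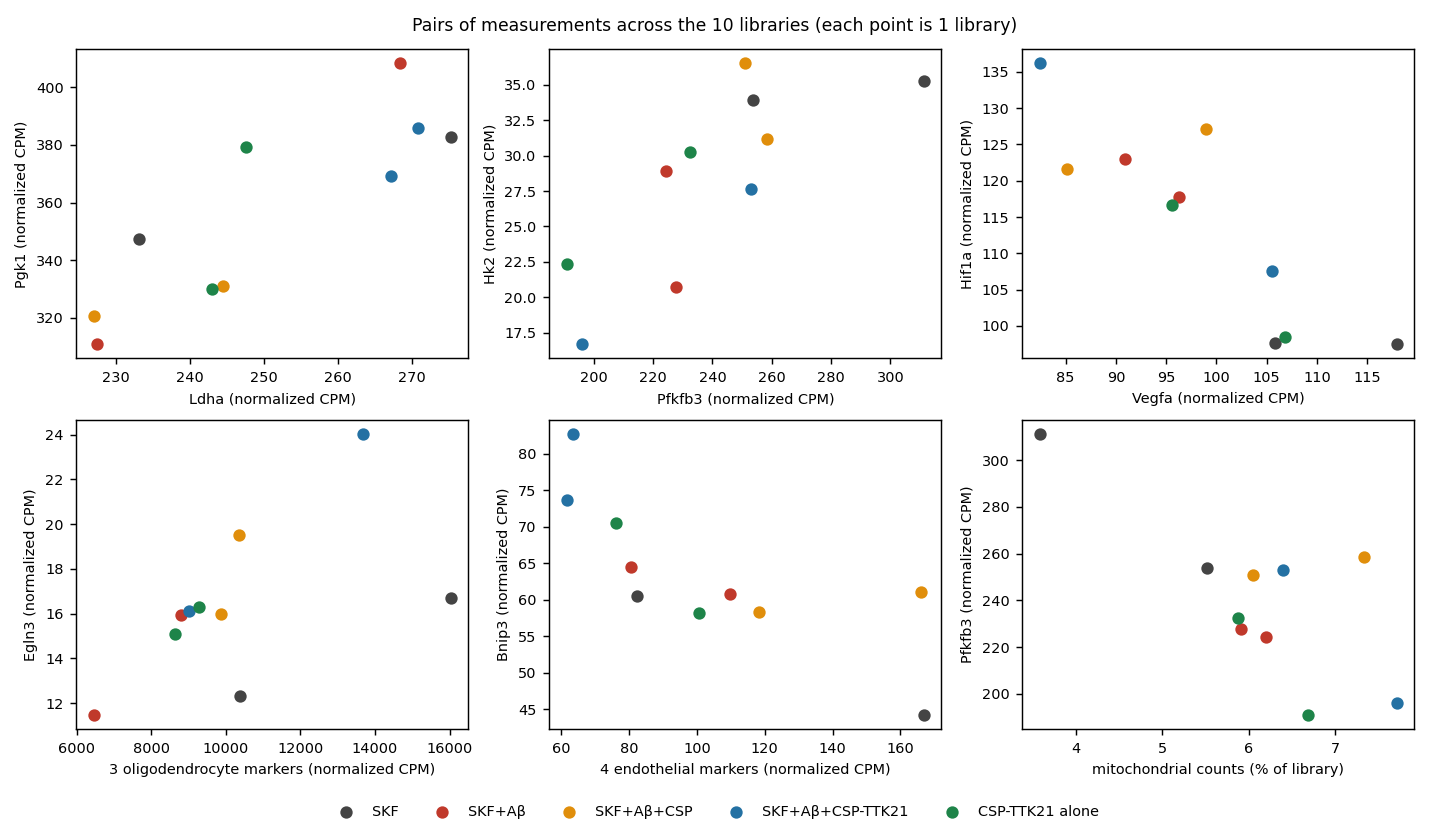
Pairs of measurements over the 10 libraries, each point 1 library coloured by group, on axes that do not start at 0. Egln3 had an r of 0.63 with the oligodendrocyte sum, Bnip3 runs against the endothelial sum (r = -0.82) and Pfkfb3 against the mitochondrial share (r = -0.73).

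The other genes of the same pathways were described from 6 lists. Of 8 tested genes of the HIF subunits and oxygen sensing, 24 other hypoxia-induced genes, 19 of glycolysis and lactate transport, 11 of pyruvate dehydrogenase and its regulators, 9 of the VEGF family and adrenomedullin receptors and 8 of mitophagy, 0 had an adjusted p under 0.05 in any of the 8 comparisons by edgeR. These are 78 distinct genes, Bnip3l standing in 2 lists. By DESeq2, 7 of the 78 had an adjusted p under 0.05 in a comparison or over all groups, beside 6.93% of all genes by the same rule. That share counts genes without a DESeq2 adjusted p as not passing. The 7 were Tfrc, Pdk4, Pink1 and Epas1 in SKF+Aβ against SKF, Aldoa and Sqstm1 in SKF+Aβ+CSP against SKF, and Flt1 (and again Tfrc) in SKF+Aβ+CSP-TTK21 against SKF. In SKF+Aβ against SKF, 9 of the 78 had an unadjusted p under 0.05 in the higher and 16 in the lower direction, beside 12% and 10.9% of all genes.

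The glycolysis list had the largest share with an unadjusted p under 0.05 in 1 direction. Of its 19 genes, 7 were lower in SKF+Aβ+CSP than in SKF at an unadjusted p under 0.05, against 9.03% of all genes, with a list median of -0.32. Against SKF+Aβ+CSP, 5 were higher in SKF+Aβ+CSP-TTK21, beside 3.17% of all genes, with a median of 0.23, and the 2 comparisons share the SKF+Aβ+CSP libraries. The list median was -0.23 in SKF+Aβ against SKF, with 3 of 19 lower at an unadjusted p under 0.05, beside 10.9% of all genes. It was -0.06 in SKF+Aβ+CSP against SKF+Aβ, with 0 of 19, beside 2.18% in either direction. A difference between SKF+Aβ+CSP and SKF+Aβ was thus not shown. Neuronal and astrocyte markers had medians of -0.19 and -0.11 in SKF+Aβ+CSP against SKF. There 2 of 5 and 1 of 5 were lower at an unadjusted p under 0.05, beside 9.03% of all genes. In SKF+Aβ+CSP-TTK21 against SKF+Aβ+CSP their medians were 0.12 and 0.42, and all 5 values of each list were above 0. In each list 1 of 5 had an unadjusted p under 0.05, beside 3.17% of all genes in that direction. Oligodendrocyte and microglial markers had medians of -0.37 and -0.28 in SKF+Aβ+CSP against SKF. In SKF+Aβ+CSP-TTK21 against SKF+Aβ+CSP the medians were 0.55 for microglial and -1.19 for endothelial markers. There 3 of 3 tested endothelial markers were lower at an unadjusted p under 0.05, beside 8.78% of all genes in either direction. The part of these cell types in the values of the glycolysis list was not tested. Aldoc, the brain aldolase of astrocytes, stood at 694 and 816 normalized CPM with SKF, at 428 and 601 with SKF+Aβ, at 554 and 440.3 with SKF+Aβ+CSP, at 596 and 815 with SKF+Aβ+CSP-TTK21 and at 619.6 and 865 with CSP-TTK21 alone. It was lower in SKF+Aβ+CSP than in SKF without overlap, by -0.60 on the log2 scale (edgeR adjusted p = 0.157). Without a low-count filter that adjusted p was 0.00148, at -0.63, and 2.99% of all genes were under 0.05. Aldoa, the widespread aldolase, differed in the same comparison by -0.48 (edgeR adjusted p = 0.116) and had levels of 811 to 1237 normalized CPM over the libraries. Its adjusted p there was 0.0322 by DESeq2 and 0.0137 by edgeR without a filter. Ldha and Pgk1 differed in that comparison by -0.11 and -0.16.

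Among the regulators of HIF, Egln2, another prolyl hydroxylase, stood at 65.0 and 62.5 normalized CPM in SKF and at 39.0 to 57.8 in the other 8 libraries, with a log2 difference of -0.55 in SKF+Aβ+CSP against SKF (edgeR adjusted p = 0.102). Without a low-count filter that adjusted p was 0.0431, at -0.58. Arnt, the partner of Hif1a, stood at 30.3 and 37.5 in SKF+Aβ+CSP-TTK21 and at 40.9 to 48.2 in the other libraries, and differed there from SKF by -0.36 (edgeR adjusted p = 0.217). Neither followed Hif1a, whose values were lowest in SKF.

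Among the other hypoxia-induced genes, Tfrc and Hmox1 had the lowest p over the 5 groups. In SKF+Aβ against SKF, 4 of the 24 were higher and 6 lower at an unadjusted p under 0.05. The shares of all genes were 12% and 10.9%. Ddit4, not described further, differed there by -0.58 (edgeR adjusted p = 0.0825). Tfrc, the transferrin receptor, stood at 115 and 137 normalized CPM with SKF, at 256 and 179.7 with SKF+Aβ, at 186 and 170.5 with SKF+Aβ+CSP, at 231 and 159.7 with SKF+Aβ+CSP-TTK21 and at 161.5 and 177 with CSP-TTK21 alone. Both SKF libraries lay below the other 8, and SKF+Aβ differed from SKF by 0.79 (95% interval 0.37 to 1.20, edgeR adjusted p = 0.0527). That adjusted p was under 0.05 by DESeq2 (0.00447) and by edgeR with the replicate block (0.0423), with at least 10 counts in every library (0.0457) and without a filter (0.000204), at differences of 0.75 to 0.79. It was not under 0.05 by edgeR with relative log expression factors. Hmox1, the stress-induced heme oxygenase, stood at 38.8 and 44.2 normalized CPM with SKF, at 30.3 and 22.4 with SKF+Aβ, at 30.4 and 20.8 with SKF+Aβ+CSP, at 23.6 and 36.1 with SKF+Aβ+CSP-TTK21 and at 33.8 and 42.1 with CSP-TTK21 alone. Both SKF libraries lay above those of the 3 groups with SKF and Aβ, and the log2 difference of SKF+Aβ from SKF was -0.65 (95% interval -1.16 to -0.15, edgeR adjusted p = 0.126). Without a low-count filter that adjusted p was 0.0143, at -0.69.

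Pdk4, a kinase of the same family as Pdk1, stood at 56.1 and 49.7 normalized CPM in SKF and 25.3 and 37.1 in SKF+Aβ, a log2 difference of -0.76 (edgeR adjusted p = 0.0841), where Pdk1 differed by 0.10. Dld, a subunit of the pyruvate dehydrogenase complex, stood at 102 and 93.0 in SKF and 125 and 141 in SKF+Aβ, a difference of 0.45 (edgeR adjusted p = 0.109). Pink1, a kinase that marks damaged mitochondria, stood at 189 and 265 in SKF and 135 and 155 in SKF+Aβ, a difference of -0.65 (edgeR adjusted p = 0.0542), where Bnip3 differed by 0.26. The adjusted p of Pink1 there was 0.00769 by DESeq2, and by edgeR 0.0455 with the replicate block, 0.0462 with at least 10 counts in every library and 0.000883 without a filter, at differences of -0.69 to -0.64. By edgeR with relative log expression factors it was not under 0.05. Sqstm1, an adaptor of autophagy, differed by -0.40 in SKF+Aβ+CSP against SKF (edgeR adjusted p = 0.113). Of the receptors, Flt1, which binds Vegfa and is also one of the endothelial markers above, stood at 35.3 and 34.2 normalized CPM with SKF+Aβ+CSP-TTK21 and at 81.6 and 60.7 in SKF+Aβ+CSP, a difference of -1.04 (edgeR adjusted p = 0.428), where Vegfa differed by 0.03. In that comparison the adjusted p of Flt1 was 0.0198 by DESeq2, 0.0362 by edgeR with the replicate block and 5.65e-06 by edgeR without a low-count filter, at differences of -1.04, -1.02 and -1.03. It was not under 0.05 by edgeR with relative log expression factors or with at least 10 counts in every library. Nrp1, a coreceptor, differed by 0.36 in SKF+Aβ against SKF (edgeR adjusted p = 0.141).

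**Figure D5:**
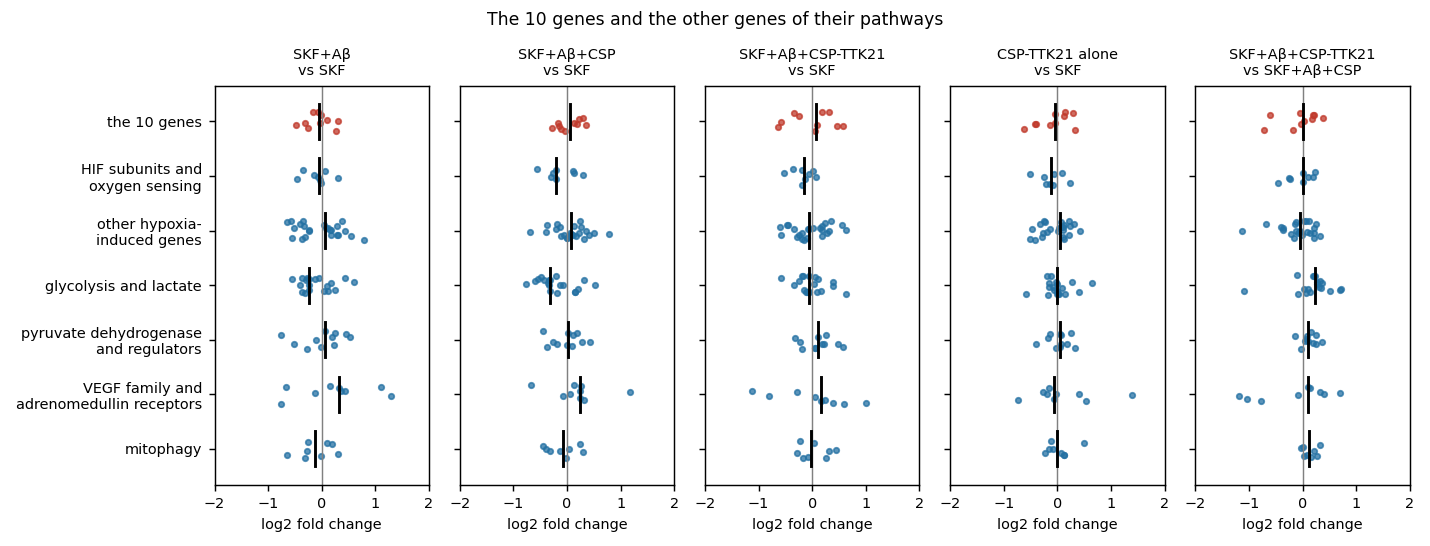
Log2 fold changes of the 10 genes (red) and of the tested genes of 6 related lists (blue) in 5 of the 8 comparisons. Each point is 1 gene and the black bar is the median of the list; the median of the 10 genes lay between -0.06 and 0.07 in these comparisons, and that of the glycolysis list at -0.32 in SKF+Aβ+CSP against SKF.

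The genes whose levels over the 10 libraries were most like the mean deviation of the 10 members, out of 15022 others, were Evi2a (r = 0.93), Kcnh8 (0.91), Ctnna3 (0.89), Tgfa (0.87) and Nedd1 (0.87). These are the highest of 15022 values over only 10 libraries, so a high r by itself shows no link to the members. The mean deviation spans a narrow range, and it had an r of 0.65 with the summed oligodendrocyte markers.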

How the data were processed

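Ribosome-depleted, stranded libraries of microdissected CA1 were read as paired ends of 150 bases. The authors deposited 1 table of raw counts per gene with Ensembl identifiers and symbols. The study's methods name read trimming, duplicate removal, TopHat2 and Cufflinks, and both Rnor_6.0 and mm10. The submitters' processing notes name STAR, RSEM, HISAT2, Salmon and GRCh38 without a role. The counting tool, its annotation and its use of strand are not given in the sources used here, so reads of overlapping, antisense or near-identical genes may be shared, a limit for Pgk1 and Ldha, which have processed pseudogenes.

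The counts were used as deposited. Genes were filtered by filterByExpr with the groups as design, leaving 15032 of 32545, scaled by TMM and fitted in edgeR 4.0.16 (R 4.3.3, limma 3.58.1) with 1 mean per group over all 10 libraries. Quasi-likelihood tests gave 8 comparisons and a test over all groups. P-values were adjusted by Benjamini-Hochberg over all genes tested. The median biological coefficient of variation was 13.6%. Log2 levels of genes, used for deviations and correlations, have a prior count of 2. Log2 fold changes are those of the edgeR fit, and 95% intervals use the quasi-likelihood standard error. The scripts were tested on simulated data.

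Alternatives were DESeq2 1.42.0, relative log expression factors, 2 other filters, a replicate block, a fit restricted to the 4 libraries of a comparison and leaving out each library. The 10 genes and the related lists were chosen with earlier results of these data known. All 10 were named. Of each list the 2 genes with the lowest p over the 5 groups were named, as none passed, and the 5 genes most like the members' mean deviation. Ero1a was read under its older symbol Ero1l, and of 2 rows each for Pkm and Pfkfb4 the higher was used. Egln1, Pdha1, Pou3f1 and Pecam1 were not matched. Hif3a, Car9 and Pgf did not pass the filter. Of the lists, 3 genes are not reported here and stay out of their counts and sums. The promoter window of Pgk1 and gene lengths were not analysed here, so levels were not compared between genes.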

Additional observations from a re-analysis of the deposited data

How the results depend on the processing

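Of 23 member log2 fold changes (each gene's lowest p, all with an unadjusted p under 0.05, those of Hif1a and Vegfa from SKF, and 5 others of Adm, Bnip3 and Pfkfb3), all kept their sign under every alternative run, and 3 of all 1280 member values under alternatives reached an adjusted p under 0.05. Without a low-count filter, 2 members did so in SKF+Aβ+CSP-TTK21 against SKF (Hk2 at -0.65, adjusted p = 0.0356, and Bnip3 at 0.56, adjusted p = 0.0390), beside 3.57% of all genes then tested, and 1 member, Hk2, in the test over all groups (adjusted p = 0.0434), beside 5.55%. When each library was left out in turn, 0 to 1 member did so in the former comparison (Bnip3 without SKF replicate 2, beside 2.14% of all genes). Of the 1280 values, 59 had the other sign, 54 of them with a library left out, none larger than 0.24 in size originally. The replicate numbers could not be shown to pair the libraries (r of deviations -0.07 to 0.24 over 2 pairs per comparison), and with the replicate block 0 members were called or had an adjusted p under 0.05. The related lists, with 0 of 78 genes (2.08% of all genes) at an adjusted p under 0.05, had 3 of 78 with the replicate block (Tfrc, Pink1 and Flt1), beside 3.17% of all genes by the same rule, 14 of 81 without a filter (2147 of 25251 genes), 2 of 71 with at least 10 counts in every library (3.39%), 7 of 78 by DESeq2 (6.93%) and 0 to 2 with a library left out (2 without SKF replicate 2, Flt1 and Angptl4, beside 2.55%). With a library left out, the median of the members ranged from -0.166 to -0.0589 in SKF+Aβ, from -0.0389 to 0.0956 in SKF+Aβ+CSP, from -0.0227 to 0.0880 in SKF+Aβ+CSP-TTK21 and from -0.136 to -0.00632 in CSP-TTK21 alone, each against SKF. Against SKF+Aβ it ranged from 0.0136 to 0.102 in SKF+Aβ+CSP and from -0.00917 to 0.147 in SKF+Aβ+CSP-TTK21. For SKF+Aβ+CSP-TTK21 it ranged from -0.0431 to 0.0570 against SKF+Aβ+CSP and from 0.0277 to 0.174 against CSP-TTK21 alone. Pdk1 in CSP-TTK21 alone against SKF ranged from 0.00 (without SKF replicate 1) to 0.74 (without SKF replicate 2). The cause of these moves was not tested. With 1 library left in a group, it is assumed to vary like the other groups. Depth limits Adm most, at 20 to 45 counts.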
